A study of Rattus norvegicus with 48 samples.

Results

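The genes described here encode translation initiation factors, the proteins that bring the initiator tRNA, the messenger RNA and both ribosomal subunits together before a protein is made. They were chosen by name: the gene name begins with Eif and a digit from 1 to 6, the eIF2 kinase genes are left out, the identifier with the most counts stands for its name, and the mean over the 48 lung libraries is at least 1 CPM, the count of a gene scaled to the total of its library. This gave 49 genes of 32285 gene identifiers in the tables. Of the 52 identifiers with a matching name, Eif4e1b and Eif6-ps1 had no counts, and a second identifier named Eif3h, at 17.4 CPM, had fewer counts than the first. The gene nearest above the limit was Eif4ebp1 at 16.5 CPM, and none lay between it and the genes listed at 0.

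The lungs came from healthy male Sprague-Dawley rats that had breathed either 30 mg/m3 of fracking sand dust together with 1.0 mg/m3 of diesel particles, or filtered air, in whole-body chambers for 6 hours on each of 4 days. Fracking sand dust is silica-bearing dust from the sand pumped into gas and oil wells. The exposed and the air groups each held 8 animals at 1, 7 and 27 days after the exposure, which makes 6 groups and 48 libraries. All animals received the same housing in pairs and the same diet, but neither the cage nor the age of each animal is given. Dust and diesel were given together and cannot be told apart here. A piece of whole lung was used, so fewer cells of a type and less RNA per cell cannot be told apart in any value below.

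The libraries held 9445675 to 14400317 counts in total (median 12004516.5). Markers of lung cells were present in every group, with the 6 alveolar type 2 genes summing to between 20100 and 24100 CPM in exposed libraries and between 20700 and 24000 CPM in air libraries at day 27. Within the groups, 4 pairs of libraries differed by 1.44 to 1.67 times what counting noise alone would give, while each of the other 164 pairs differed by 2.42 times or more. Numbering the libraries of a group from 1 to 8 by animal number, these were exposed libraries 1 and 4 at day 1, exposed libraries 3 and 6 and air libraries 1 and 4 at day 7, and air libraries 3 and 6 at day 27. Each such pair was averaged to 1 replicate in every mean ± SD, so n is 7 in those groups and 8 in the others. Log2 differences come from fits in which all 16 libraries of a day count, so they need not equal the ratio of these means. Values with the pairs summed are given where summing ended a call or moved a value by over 1.5 times. Nothing in the labels says whether the libraries of a group differ in cage, litter or sequencing run, so p-values measure the spread between these libraries.

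As background, initiation begins when eIF2, carrying GTP and the initiator tRNA, joins the small ribosomal subunit with eIF1, eIF1A, eIF5 and the many-subunit factor eIF3. The cap-binding protein eIF4E, the scaffold eIF4G and the helicase eIF4A bring the messenger RNA, the complex scans to a start codon, and the GTPase eIF5B then helps the large subunit join. eIF2B recharges eIF2 with GTP, eIF6 keeps free large subunits from joining too early, and eIF5A acts mainly later, on elongation and termination. Most of these genes are expressed in every cell, the lung included, and stress kinases that act on eIF2 and the mTORC1 pathway that acts on eIF4E-binding proteins are the best known controls.

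Of the 49 genes, 43 had a promoter in the RefSeq table for the rat build GRCr8, with 46 promoters in all, each covering 250 bases before and 50 bases from the annotated start. The promoters of 2 genes that were higher in exposed lungs at day 27, Eif5b and Eif3a, and of the 2 that were lower, Eif5a and Eif6, are printed so that the genes with opposite changes can be read side by side. Capitals mark the motifs searched on both strands: the E-box CACGTG, the ETS-type motif CCGGAAG, the YY1-type motif AAGATGG and the core GCATGCG of the NRF1 motif. They lie at chr9:47718456-47718755 on the plus strand (Eif5b), chr1:269918976-269919275 on the minus strand (Eif3a), chr10:55143172-55143471 on the minus strand (Eif5a) and chr3:164791361-164791660 on the minus strand (Eif6).
Eif5b promoter: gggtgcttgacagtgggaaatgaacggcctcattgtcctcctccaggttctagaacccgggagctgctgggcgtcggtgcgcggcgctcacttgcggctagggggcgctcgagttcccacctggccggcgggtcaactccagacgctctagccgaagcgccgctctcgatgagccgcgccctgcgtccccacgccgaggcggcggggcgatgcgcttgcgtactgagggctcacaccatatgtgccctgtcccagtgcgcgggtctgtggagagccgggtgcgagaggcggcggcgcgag
Eif3a promoter: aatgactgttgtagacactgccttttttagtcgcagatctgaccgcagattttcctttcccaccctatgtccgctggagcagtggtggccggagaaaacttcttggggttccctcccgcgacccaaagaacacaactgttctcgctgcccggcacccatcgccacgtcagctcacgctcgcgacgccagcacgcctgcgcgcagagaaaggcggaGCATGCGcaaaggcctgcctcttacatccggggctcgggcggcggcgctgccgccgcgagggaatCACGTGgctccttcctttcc
Eif5a promoter: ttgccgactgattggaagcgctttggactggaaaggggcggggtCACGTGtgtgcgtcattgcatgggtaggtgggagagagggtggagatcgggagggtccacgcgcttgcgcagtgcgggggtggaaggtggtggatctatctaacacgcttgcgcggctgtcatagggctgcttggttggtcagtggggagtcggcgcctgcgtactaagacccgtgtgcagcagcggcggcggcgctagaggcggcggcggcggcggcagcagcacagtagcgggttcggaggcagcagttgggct
Eif6 promoter: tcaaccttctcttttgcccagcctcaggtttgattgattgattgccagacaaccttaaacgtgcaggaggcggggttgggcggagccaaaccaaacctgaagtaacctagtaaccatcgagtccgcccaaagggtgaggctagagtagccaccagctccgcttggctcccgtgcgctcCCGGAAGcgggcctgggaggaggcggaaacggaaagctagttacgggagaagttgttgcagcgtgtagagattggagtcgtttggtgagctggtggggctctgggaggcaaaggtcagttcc

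The Eif3a promoter holds an E-box and an NRF1 core, the Eif5a promoter an E-box, the Eif6 promoter an ETS-type motif, and the Eif5b promoter none of the searched motifs, nor do those of Eif3j and Eif4g2. The ETS-type motif was in 41.3% of the 46 promoters, from 17 genes, against 8.75% of all 33469 promoters in the table. The E-box was in 19.6% of them, against 6.42% of all promoters. The YY1-type motif was in 13.0% against 7.01%, and the NRF1 core in 8.70% against 3.33%. A start like that of TOP messenger RNAs, a C at the first base followed by 4 pyrimidines, was found in 1 promoter, that of Eif2a, which is 2.17% of the 46 against 2.63% of all promoters, whereas 24 of 63 ribosomal protein promoters (38.1%) had it. The rule left out most ribosomal protein promoters, so a promoter without a match is not shown to lack a TOP start. Eif3e, Eif3h, Eif3i-ps1, Eif4b, Eif4e3 and Eif4ebp1 had no promoter in the RefSeq table and were not searched. These matches are descriptions of the letters in these windows.

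The comparison of exposed with air lungs at each day asks whether the inhaled particles changed the transcripts, and it showed changes in this family at day 27. By edgeR's quasi-likelihood test with Benjamini-Hochberg adjustment over all genes tested, 6 of the 49 genes passed an adjusted p of 0.05 at day 27, which is 12.2% of them, against 5.52% of all 14192 genes tested. Of the 49, 4 were higher and 2 lower in exposed lungs, against 2.18% and 3.33% of all genes. The count rests on single libraries and on the close pair: leaving out each library in turn gave 0 to 13 genes of the 49, beside 0.0631% to 13.5% of all genes, and summing the pair left 1 gene. Higher in exposed than in air lungs were the subunit-joining GTPase gene Eif5b, the eIF3 subunit genes Eif3a and Eif3j and the scaffold gene Eif4g2. Eif5a and Eif6 were lower. Below, a rise or fall means higher or lower in exposed than in air lungs of the same day, not over time. At days 1 and 7 none of the 49 passed, against 0.0279% of 14314 genes at day 1 and 0% of 14259 genes at day 7, and 3 and 4 of the 49 had an unadjusted p under 0.05, against 8.67% and 8.47% of all genes. At day 27, 18 of the 49 had an unadjusted p under 0.05, or 36.7%, against 26.7% of all genes.

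The changes were small and went both ways. At day 27 the log2 fold changes of exposed over air ran from -0.24 to 0.23, with 22 genes above 0 and 27 below, and their median was -0.002 beside -0.008 over all genes. The median size of the change, without its sign, was 0.026 at day 1, 0.038 at day 7 and 0.098 at day 27, beside 0.065, 0.060 and 0.119 over all genes. These genes also varied less between the libraries of a group: the SD within a group on the log2 scale had a median of 0.087 over the 49 genes, with a range of 0.0481 to 0.18, beside 0.167 over all genes. Neither comparison with all genes was matched for count level. Each of the 49 averaged at least 16.5 CPM, while all genes include less counted ones, which vary more from counting alone.

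**Figure D1:**
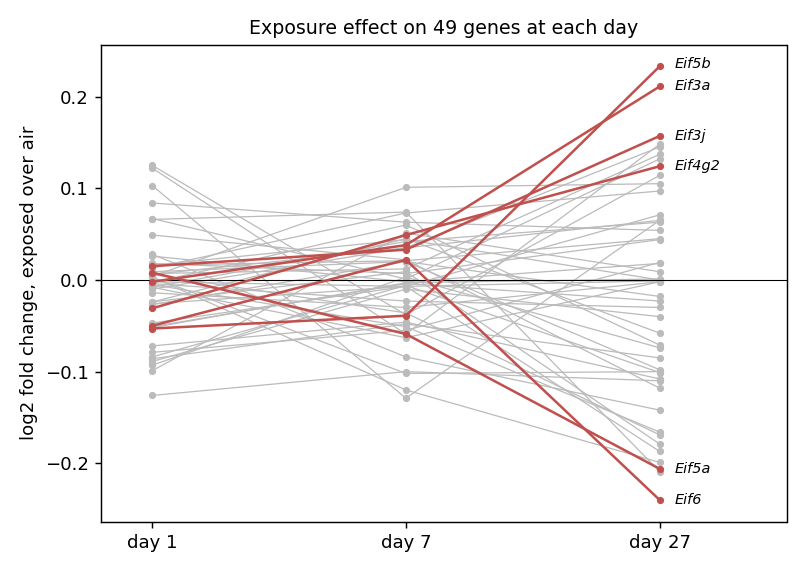
Log2 fold change of exposed over air (vertical axis) at days 1, 7 and 27 for each of the 49 genes, 1 line per gene; red lines are the 6 genes that passed an adjusted p of 0.05 at day 27. The lines lie within -0.13 and 0.13 at days 1 and 7 and spread to -0.24 and 0.23 at day 27.

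Eif5b, the gene of the GTPase that joins the ribosomal subunits, had the smallest p of the family at day 27. Its level in exposed lungs was 168 CPM at the lowest, 176 CPM at the median and 191 CPM at the highest, against 139, 151 and 162 CPM in air lungs. Each of the 8 exposed libraries lay above every air library, a lack of overlap seen in either direction in 0.431% of 14852 genes. The mean was 178 ± 8.30 CPM (SD, n = 8) in exposed lungs and 150 ± 7.73 CPM (n = 7) in air lungs. The fit, with all 16 libraries counted, gave a rise of 17.5% or 0.233 on the log2 scale (SE 0.040, adjusted p = 0.0208 by edgeR). With the close pair of air libraries summed the rise was 0.243 (adjusted p = 0.0406), and Eif5b was then the only 1 of the 49 genes called, against 0.217% of all genes. Leaving out each library in turn gave 0.219 to 0.250, and the adjusted p was above 0.05 only without exposed library 3, at 0.053.

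Eif6, whose product holds the large subunit apart, moved the other way. Its level ran from 55.7 through a median of 61.1 to 64.7 CPM in exposed lungs, against 61.0, 73.0 and 87.2 CPM in air lungs. Of the 8 exposed libraries 4 lay below every air library, and the air libraries were far more spread. The mean was 60.85 ± 2.77 CPM (SD, n = 8) in exposed lungs and 71.4 ± 9.63 CPM (n = 7) in air lungs, and the gene fell by 0.240 on the log2 scale (SE 0.065, adjusted p = 0.0403 by edgeR). With the ribosomal protein level as a covariate the value was -0.055, and with 1 surrogate variable -0.111 (adjusted p = 0.166). The call was also lost with the close air pair summed (-0.231, adjusted p = 0.0770), with no filter on low counts (adjusted p = 0.0503), by limma-voom, whose adjusted p lay just above the threshold, and on leaving out any of 12 of the 16 libraries, which are all but exposed library 2 and air libraries 1, 2 and 4.

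eIF3, which holds the small subunit, the messenger RNA and the other factors together, gave 14 of the genes, 1 of them listed as the pseudogene Eif3i-ps1. Eif3a, the largest subunit and part of its core, rose: exposed lungs stood at 360, 386 and 414 CPM (lowest, median, highest), against 296.2, 338 and 352 CPM in air lungs. Its groups did not overlap either. The mean was 385 ± 19.5 CPM (SD, n = 8) in exposed lungs and 333 ± 19.3 CPM (n = 7) in air lungs, and the fit gave a rise of 15.8% or 0.211 on the log2 scale (SE 0.041, adjusted p = 0.0208 by edgeR, and 0.0512 with the close pair summed). The call was also lost without air library 6, exposed library 3 or exposed library 8, with adjusted p between 0.0532 and 0.055.

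Eif3j, a loosely bound subunit that sits near the decoding site, rose as well. Exposed lungs stood at 88.3, 95.7 and 104 CPM, against 81.4, 85.8 and 89.6 CPM in air lungs, and 7 of 8 exposed libraries lay above every air library. The mean was 95.7 ± 4.50 CPM (SD, n = 8) in exposed lungs and 86.2 ± 2.38 CPM (n = 7) in air lungs, a rise of 0.157 on the log2 scale (SE 0.036, adjusted p = 0.0288 by edgeR, and 0.0590 with the close pair summed). With 1 surrogate variable the adjusted p was 0.0995, and leaving out exposed library 3, 7 or 8 or air library 3, 6, 7 or 8 also took it above 0.05.

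The other 12 eIF3 genes did not pass at day 27, and 10 of the 14 had a log2 fold change below 0, with a median of -0.10 over the 14. The genes with the smallest p among those below 0 were Eif3i at -0.199 (95% interval -0.33 to -0.07, adjusted p = 0.0578 by edgeR), Eif3i-ps1 at -0.169 (adjusted p = 0.0913) and Eif3g, an RNA-binding subunit, at -0.166 (adjusted p = 0.0944). Eif3i-ps1 is named as a pseudogene copy of Eif3i, and the authors' counting may have split reads between them, so their values are uncertain. Of the 14 eIF3 genes 9 had an unadjusted p under 0.05 by edgeR, against 26.7% of all genes. Values of the subunits lay on both sides of 0. Those of Eif3a and Eif3j were higher in exposed lungs, and only these 2 passed, neither of them with the close pair summed. Those of Eif3f (-0.142), Eif3h (-0.098), Eif3k (-0.187) and Eif3l (-0.118) were lower in exposed lungs and did not pass.

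Among the cap-binding and scaffold genes Eif4g2 rose. It encodes a scaffold related to eIF4G that lacks the part binding eIF4E and serves initiation that does not use it. Exposed lungs stood at 1415, 1516 and 1624 CPM, against 1318, 1388 and 1442 CPM in air lungs, and 7 exposed libraries reached above every air library. The mean was 1508 ± 63.1 CPM (SD, n = 8) in exposed lungs and 1392 ± 48.6 CPM (n = 7) in air lungs, a rise of 0.124 on the log2 scale (SE 0.036, adjusted p = 0.0481 by edgeR, and 0.0929 with the close pair summed). With the ribosomal protein level as a covariate the value was 0.056, and the call was lost with 1 surrogate variable (adjusted p = 0.189) and with no filter (adjusted p = 0.0731). Leaving out any of 13 of the 16 libraries, all but exposed library 2 and air libraries 2 and 4, ended the call.

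The other 10 genes of the cap-binding, helicase and scaffold group did not pass, and 8 of the 11 lay above 0, with a median of 0.063. Eif4a3, a helicase that belongs to the exon junction complex more than to initiation, had 102 ± 3.76 CPM in exposed lungs and 110 ± 4.26 CPM in air lungs (-0.108, adjusted p = 0.0611 by edgeR). The cap-binding protein gene Eif4e had 94.3 ± 3.26 CPM in exposed lungs and 87.6 ± 4.58 CPM in air lungs (0.105, adjusted p = 0.0878). Its inhibitors, the eIF4E-binding proteins, gave values on both sides of 0, with Eif4ebp1 at -0.209 (adjusted p = 0.192) and Eif4ebp2 at 0.114 (adjusted p = 0.233), and neither passed.

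Eif5a, the hypusine-bearing factor that helps ribosomes through difficult stretches, fell. Exposed lungs stood at 261.2, 281.98 and 314.7 CPM, against 295.02, 331.8 and 389.8 CPM in air lungs, and 6 exposed libraries lay below every air library. The mean was 285.2 ± 18.6 CPM (SD, n = 8) in exposed lungs and 329 ± 34.1 CPM (n = 7) in air lungs, and the gene fell by 0.206 on the log2 scale (SE 0.056, adjusted p = 0.0415 by edgeR, and 0.0754 with the close pair summed). With the ribosomal protein level as a covariate the value was -0.060, and the call was lost with 1 surrogate variable (-0.097, adjusted p = 0.131) and with no filter (adjusted p = 0.0532). Leaving out any of 11 of the 16 libraries, all but exposed libraries 2 and 4 and air libraries 1, 2 and 4, ended the call. Its relative Eif5a2 had a value of 0.148 (95% interval -0.06 to 0.36, adjusted p = 0.335).

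**Figure D2:**
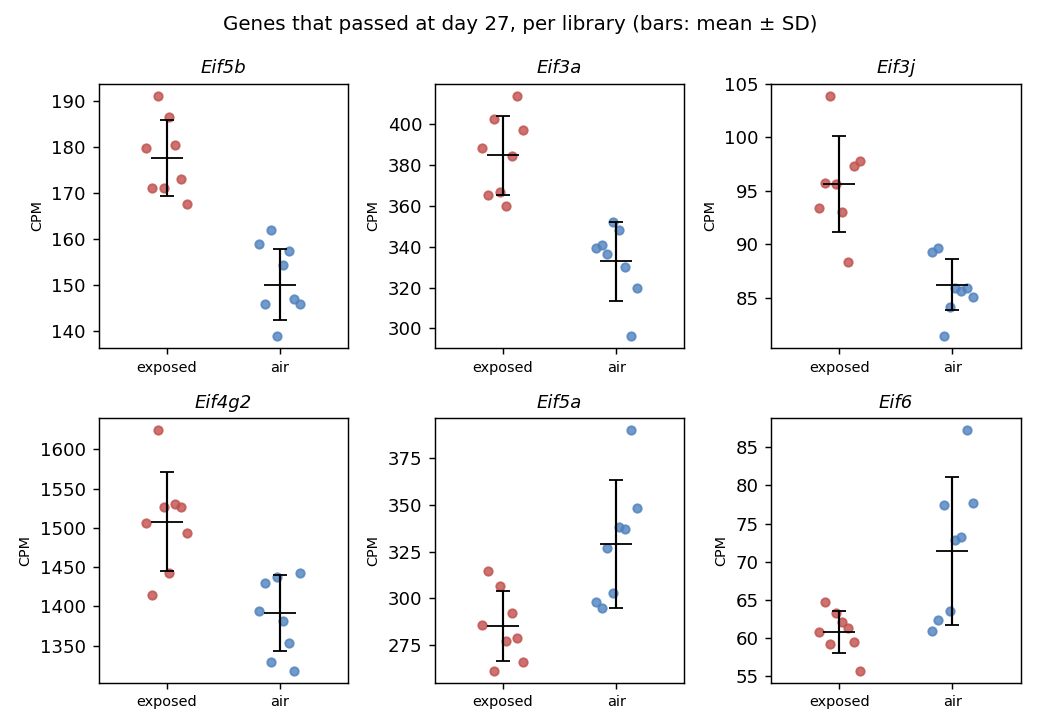
Level in CPM (vertical axes, not starting at 0) of the 6 genes that passed at day 27, 1 point per library, with the mean and SD as bars; exposed on the left and air on the right of each panel. The exposed and air points of Eif5b and Eif3a do not overlap, and the air points of Eif5a and Eif6 are more spread than the exposed ones.

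None of the 6 genes grouped under scanning and start codon choice (Eif1, Eif1a, Eif1ad, Eif1ax, Eif1b and Eif5) passed at day 27. Eif5, whose product makes eIF2 hydrolyse its GTP, had 334 ± 15.8 CPM in exposed lungs and 305 ± 20.5 CPM in air lungs (0.137, adjusted p = 0.0595 by edgeR), and Eif1ax had 163 ± 10.7 CPM in exposed lungs and 148 ± 8.76 CPM in air lungs (0.145, adjusted p = 0.0626). The eIF2 genes themselves were close to level. Eif2s1 and Eif2s2, for the alpha and beta subunits, each gave -0.002, and Eif2s3, for the gamma subunit, gave 0.071 (adjusted p = 0.204). Of the 6 genes grouped as eIF2 and its partners, which also hold Eif2a, Eif2d and Eif2s3y, the smallest p was that of Eif2s3. The 95% interval of Eif2s1 ran from -0.12 to 0.12. Among the 5 eIF2B genes Eif2b2 had 33.6 ± 2.18 CPM in exposed lungs and 37.8 ± 2.91 CPM in air lungs (-0.179, adjusted p = 0.0581).

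**Figure D3:**
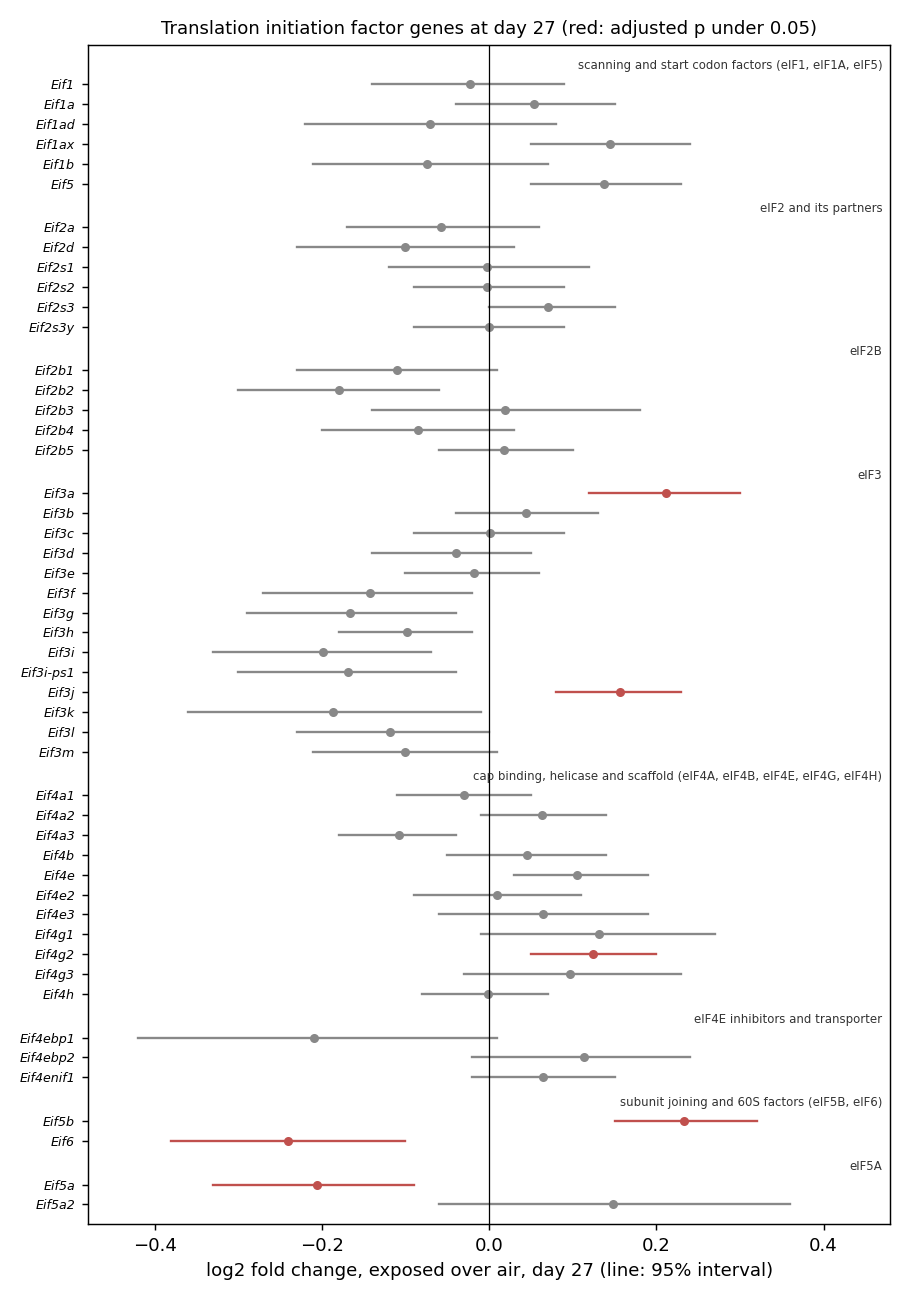
Log2 fold change of exposed over air at day 27 (horizontal axis) for each of the 49 genes, grouped by role, with 95% intervals as lines and genes with an adjusted p under 0.05 in red. The 4 red genes on the right are Eif3a, Eif3j, Eif4g2 and Eif5b, and the 2 on the left are Eif5a and Eif6, while most eIF3 points lie left of 0.

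At day 1 the genes with the smallest p were Eif4e2, a cap-binding relative of eIF4E, Eif3d, Eif4ebp2, Eif2b1 and Eif4a3. Eif4e2 had 51.9 ± 2.16 CPM in exposed lungs (SD, n = 7) and 55.7 ± 2.71 CPM in air lungs (n = 8), a log2 difference of -0.099 (adjusted p = 0.480 by edgeR). The differences of the other 4 were -0.089, 0.125, -0.126 and -0.072, with adjusted p of 0.567 to 0.639. In the remaining roles the smallest p belonged to Eif2a (-0.024), Eif5b (-0.053), Eif1b (-0.093) and Eif5a2 (0.122).

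At day 7 they were Eif4e, Eif3f, Eif3i, Eif2d and Eif2b1. Eif4e had 88.2 ± 3.48 CPM in exposed lungs and 83.0 ± 2.44 CPM in air lungs (SD, n = 7 each), a log2 difference of 0.101 (adjusted p = 0.462 by edgeR). Those of the other 4 were -0.084, -0.120, -0.102 and -0.100, with adjusted p of 0.513 to 0.624. In the remaining roles the smallest p belonged to Eif5a (-0.059), Eif1a (0.063), Eif5b (-0.039) and Eif4ebp2 (-0.038). With the close pairs of day 7 summed the last 2 were -0.015 and -0.017. With 6.12% and 8.16% of the 49 genes at an unadjusted p under 0.05 at days 1 and 7, the family was near the share of all genes at both days.

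Eif5b was followed over the 3 days because earlier results of these data had singled it out, so the choice is not independent of them. In exposed lungs it had 151 ± 6.84 CPM at day 1 and 157 ± 6.85 CPM at day 7 (SD, n = 7 each), and 178 ± 8.30 CPM at day 27 (n = 8). In air lungs it had 157 ± 7.49 CPM at day 1 (n = 8), and 159 ± 8.98 CPM at day 7 and 150 ± 7.73 CPM at day 27 (n = 7 each). The lowest, median and highest exposed libraries stood at 144, 147 and 160 CPM at day 1 and at 149, 155 and 170 CPM at day 7, against 148, 158 and 168 CPM and 146, 158 and 178 CPM in air lungs. The groups overlapped at days 1 and 7, where the log2 differences were -0.053 (adjusted p = 0.714 by edgeR) and -0.039 (adjusted p = 0.824, and -0.015 with the close pairs summed).

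**Figure D4:**
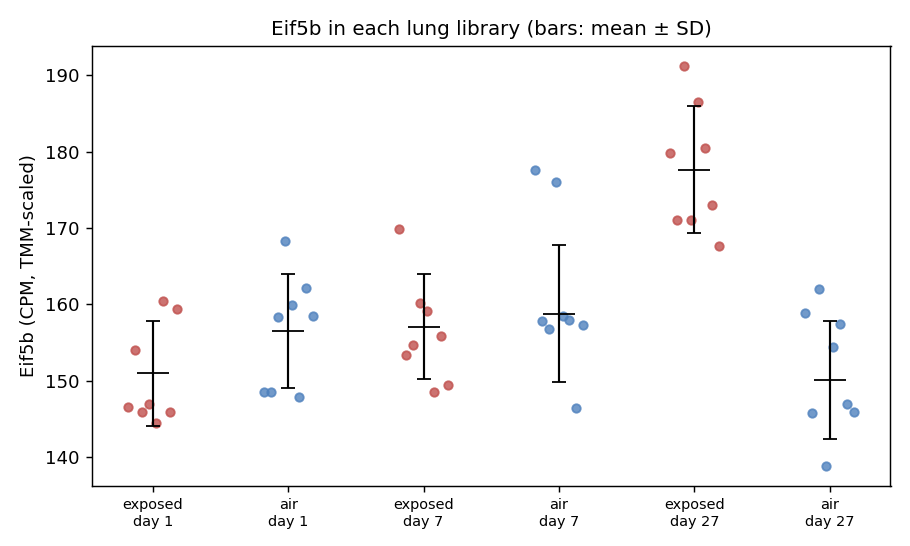
Eif5b level in CPM (vertical axis, not starting at 0) in each of the 48 libraries, by day and treatment, with the mean and SD as bars. The exposed day 27 libraries sit between 168 and 191 CPM, above all 8 air libraries of that day, which sit between 139 and 162 CPM.

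The difference between days was itself tested in 1 fit of all 48 libraries. The exposure effect on Eif5b was 0.288 higher on the log2 scale at day 27 than at day 1 (SE 0.053, adjusted p = 0.00921 by edgeR), 1 of 2 genes of the 49 called in that contrast, against 0.498% of all 14852 genes. It was 0.273 higher at day 27 than at day 7 (SE 0.053, adjusted p = 0.0382), the only gene of the 49 called there, against 0.0202% of all genes. Between days 7 and 1 the difference was 0.015 (SE 0.053, adjusted p = 0.975). The 2 contrasts called share the day 27 libraries. With close pairs summed the first held (0.295, adjusted p = 0.0121) and the second did not (0.259, adjusted p = 0.145). Leaving out each of the 48 libraries in turn kept the first call every time, whereas the second was lost for 17 of them, with adjusted p of up to 0.0984. These were exposed libraries 2, 3, 5, 6, 7 and 8 and air libraries 1, 3, 4 and 6 of day 7, and exposed libraries 1, 3, 5, 6 and 7 and air libraries 7 and 8 of day 27.

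Within the exposed groups Eif5b was 0.239 higher at day 27 than at day 1 (adjusted p = 8.6e-06 by edgeR) and 0.183 higher than at day 7 (adjusted p = 0.000911). Within the air groups the same differences were -0.049 (adjusted p = 0.398) and -0.090 (adjusted p = 0.0512). Eif3a was the other gene of the 49 whose exposure effect differed between days 27 and 1, by 0.214 (SE 0.048, adjusted p = 0.0430, and 0.0774 with close pairs summed). Its exposed level at day 27 was 0.125 higher than at day 1 (adjusted p = 0.0105), and its air level was 0.089 lower on the log2 scale (-0.089, adjusted p = 0.0618).

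Some of the 49 genes also differed between days within a treatment. With all libraries counted, calls were more frequent in air lungs, among the 49 and among all genes alike. Between days 27 and 7, 17 genes passed in exposed lungs, against 12.1% of all genes, and 16 of them were higher at day 27, against 6.36% of all genes. In air lungs 32 passed, against 39.7% of all genes, and 25 of them were higher, against 20% of all genes. The counts over both directions are 34.7% of the 49 genes in exposed lungs and 65.3% in air lungs. In air lungs Eif6 was 0.371 higher at day 27 than at day 7 (adjusted p = 3.6e-05), Eif3g 0.369 higher (adjusted p = 9.09e-07) and Eif5a 0.245 higher (adjusted p = 0.000252), while Eif3a was lower (-0.144, adjusted p = 0.000854) and Eif4g2 was lower (-0.127, adjusted p = 0.000454). The air libraries of day 27 enter this comparison as well as that with exposed lungs, so the values stand side by side only. In exposed lungs the means at days 7 and 27 (n = 7 and 8) were 1552 and 1508 CPM for Eif4g2. For Eif6 they were 56.0 and 60.85 CPM, and for Eif5a 266.9 and 285.2 CPM. Each day has its own animals and its own table, so day, age and handling cannot be told apart. Between days 27 and 1, 10 genes passed in exposed lungs, against 11.5% of all genes, and 18 in air lungs, against 17.6%. Between days 7 and 1, 3 passed in exposed lungs, against 2.14%, and 4 in air lungs, against 8.32%. With close pairs summed these were 2 in exposed lungs, against 0.659%, and 1 in air lungs, against 3.69%. Summing gave 14 in exposed and 29 in air lungs between days 27 and 7, and 11 and 14 between days 27 and 1. No share of all genes with pairs summed was taken for these last counts.

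Genes that act on or beside initiation were read in lists, to be set at day 27 against 5.52% of all genes called. Of 7 genes for the eIF2 kinases and the phosphatase that reverses them none passed, the smallest p being that of the phosphatase catalytic subunit Ppp1ca (233 CPM in exposed lungs and 255.1 CPM in air lungs, -0.132, adjusted p = 0.0739 by edgeR). Of 15 genes that the integrated stress response is known to induce, 1 rose, Cebpg, a transcription factor that pairs with ATF4 (118 ± 5.88 CPM in exposed lungs and 107 ± 1.86 CPM in air lungs, 0.142, adjusted p = 0.0332). Of these 15 genes 5 lay above 0 and 10 below, with a median of -0.014. Of 13 tested genes of the mTORC1 pathway and the MNK kinases, 1 fell, Akt1s1, which encodes an mTORC1 inhibitor (35.3 ± 1.70 CPM in exposed lungs and 40.3 ± 3.76 CPM in air lungs, -0.187, adjusted p = 0.0487). Of the 13, 7 lay above 0 and 6 below. A single call in a list of this size is near the share of all genes.

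Pabpc1 and Dhx29 were among the other initiation proteins that rose. Pabpc1, the poly(A)-binding protein that meets eIF4G, had 664 ± 12.1 CPM in exposed lungs and 592 ± 38.5 CPM in air lungs (0.151, adjusted p = 0.0385 by edgeR). Dhx29, a helicase for structured leaders, had 37.4 ± 2.98 CPM in exposed lungs and 32.4 ± 2.49 CPM in air lungs (0.213, adjusted p = 0.0417). Of 12 elongation factors 1 fell, the mitochondrial factor Tsfm (7.38 ± 0.625 CPM in exposed lungs and 9.61 ± 0.776 CPM in air lungs, -0.367, adjusted p = 0.0288), while 5 of the 12 lay above 0 and 7 below. None of 8 termination and recycling factors passed (Etf1, which reads stop codons, 0.109, adjusted p = 0.0953), and none of 10 cytosolic chaperones did (Hspa4, 0.121, adjusted p = 0.0520), although all 10 chaperones lay above 0. None of these lists gave a call with the close pair summed.

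At days 1 and 7 none of these genes passed. The smallest p in each list at day 1 belonged to Hspa4l (0.512, adjusted p = 0.270 by edgeR), Ppp1r15a (-0.087), Gfm2 (0.189), Psat1 (0.252), Mknk1 (-0.055), Mtif2 (-0.144) and Hbs1l (-0.079). At day 7, among the lists other than that of further initiation proteins, it belonged to Hspa1a (2.021, adjusted p = 0.541), Eif2ak3 (-0.097), Eef2k (-0.060), Slc7a11 (0.464), Tsc1 (0.252) and Hbs1l (0.095). Hspa1a, a stress-induced chaperone, was very uneven, at 124 ± 148 CPM in exposed lungs and 42.2 ± 40.7 CPM in air lungs.

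Transcripts of the cytosolic ribosomal proteins moved with several of these results, in a set looked at after the values were seen. Their level, the mean log2 CPM of 67 genes, was 7.95, 8.02 and 8.20 (lowest, median, highest) in exposed lungs at day 27, against 7.99, 8.22 and 8.49 in air lungs. Of 66 ribosomal protein genes tested, 35 fell at day 27, against 3.33% of all genes called lower. Of the 66, 65 lay below 0, with a median of -0.23, and none passed at days 1 and 7. With the close pair summed only 31 genes of any kind passed at day 27, so not all of these 35 calls held. Over the 48 libraries, after subtracting each group's mean, the level of Eif5a followed the ribosomal protein level with Pearson's r = 0.695 and Spearman's rho = 0.658 (permutation p adjusted over 6 relations 6e-05 and 3e-05), and that of Eif6 with r = 0.652 and rho = 0.642 (6e-05 and 3e-05). Without the 2 libraries farthest from the median these r were 0.624 and 0.554.

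Eif4g2 ran against it, with r = -0.492 and rho = -0.488 (adjusted permutation p = 0.0016 and 0.0025). The relations of Eif3a (r = -0.337 and rho = -0.325, adjusted permutation p = 0.066 and 0.059), Eif5b (r = 0.235, 0.15) and Eif3j (r = 0.108, 0.43) did not pass the threshold. The close pairs count as separate libraries in these values, and all share the scaling of their library. With the ribosomal protein level as a covariate at day 27, the log2 differences were 0.252 for Eif5b, 0.146 for Eif3a, 0.128 for Eif3j, 0.056 for Eif4g2, -0.060 for Eif5a and -0.055 for Eif6. No gene of any kind passed in that fit, and the adjusted p of Eif5b was 0.48 (unadjusted p = 0.000107). The ribosomal protein level at day 27 itself differed between the groups (median 8.02 in exposed and 8.22 in air lungs). The covariate thus overlaps with the exposure, and this fit cannot tell them apart. Whether the ribosomal protein level has a part in the changes of the 6 genes was not tested.

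**Figure D5:**
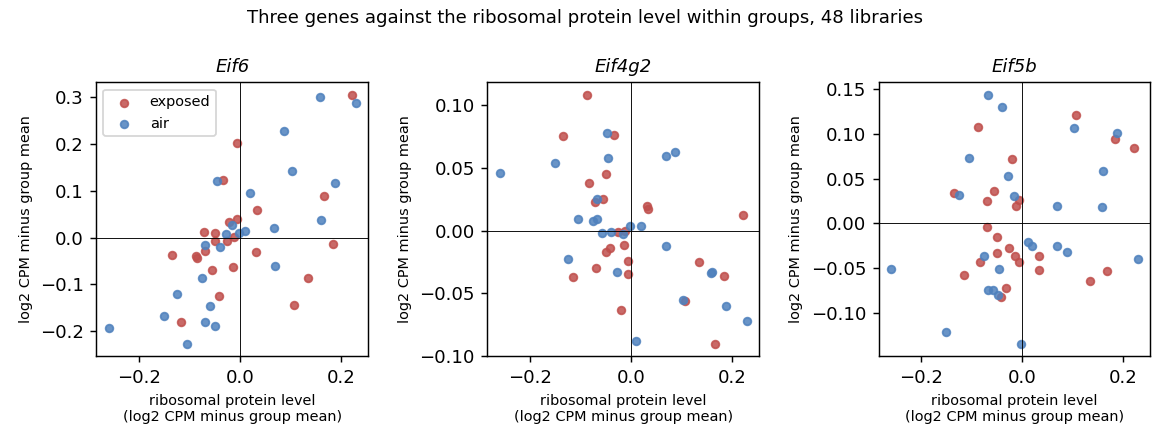
Level of Eif6, Eif4g2 and Eif5b (vertical axes, log2 CPM minus the group mean) against the ribosomal protein level (horizontal axes, log2 CPM minus the group mean) in 48 libraries, exposed in red and air in blue. The points of Eif6 climb from left to right, those of Eif4g2 descend, and those of Eif5b show a wide scatter, with r of 0.652, -0.492 and 0.235.

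Single markers of lung cell types also passed at day 27. The endothelial gene Tie1 was lower in exposed lungs, at 301 ± 19.1 CPM against 340 ± 7.95 CPM in air lungs (-0.173, adjusted p = 0.0292 by edgeR), as were the ciliated cell gene Tppp3 (-0.281, adjusted p = 0.0373) and the B cell gene Cd79a (-0.802, adjusted p = 0.0373). The fibroblast gene Pdgfra was higher (0.229, adjusted p = 0.0444). These are 1 gene each of 4 endothelial markers (1 above 0 and 3 below), 4 ciliated (1 above and 3 below), 5 B cell (all below) and 5 fibroblast markers (2 above and 3 below, median -0.026). None of these marker genes was called with the close pair summed. Without a call, all 3 club cell markers (median -0.371), all 5 T cell markers (-0.263) and all 3 macrophage markers tested (-0.128) lay below 0. The summed markers overlapped between the groups, with B cells at 397 to 816 CPM in exposed lungs and 299 to 1070 CPM in air lungs. Heart muscle markers, whose source was not tested, summed to 14.8 to 280 CPM in exposed lungs and 43.4 to 343 CPM in air lungs. The part of cell makeup in the changes of the initiation factors was not tested.

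The genes whose level followed Eif5b most closely, over the 48 libraries after subtracting each group's mean and among 14134 genes, were Plau (Pearson's r = 0.544), Bcl2l14 (0.535), Tifa (0.520), RGD1306001 (0.519) and Pabpc1 (0.515). Of these, Pabpc1 alone passed at day 27 (0.15, adjusted p = 0.0385 by edgeR), while the others lay between -0.39 and -0.06 and did not. The correlations are descriptions, and the libraries share their depth and scaling.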

How the data were processed

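The deposited values are expected counts, the authors' estimates of fragments per gene, in 3 tables with 1 table per day. Salmon 1.10.1 and STAR 2.6.1d, beside Trim Galore 0.6.7, cutadapt 3.4 and bcl2fastq 2.19, are listed in the submitters' processing notes together with build Rnor_6.0, and per the labels' protocols the libraries were stranded and from polyadenylated RNA. Settings are not given in the sources used here. Of the deposited values 5.58% were more than 1e-06 from a whole number, and rounding came before any test. Groups, days and animal numbers come from the labels. CPM values use TMM factors over 48 libraries and are not divided by gene length, so levels are not compared between genes. Reads of genes with related names (Eif3i and Eif3i-ps1, Eif2s3 and Eif2s3y, Eif1a and Eif1ax, both Eif3h identifiers) may be split between them. How alike their sequences are was not measured.

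Each day was tested on its 16 libraries in R 4.3.3 with edgeR 4.0.16 (filterByExpr, TMM, robust quasi-likelihood F test, Benjamini-Hochberg adjustment over all genes, threshold 0.05), and differences between days as contrasts in 1 fit of all 48. The SE is the log2 fold change divided by the square root of F, and 95% intervals use 14 residual degrees of freedom. The steps were tested on simulated data. Alternatives were DESeq2 1.42.0, limma-voom (limma 3.58.1), RLE size factors, no filter, a minimum mean of 1 CPM, close pairs summed, all 48 libraries in one fit, 1 surrogate variable (sva 3.50.0), log2 total count as a covariate and leaving out each library. The ribosomal protein level as a covariate was chosen after seeing the data. Genes were named by rule: Eif5b, every called gene, the 5 smallest p per day, the smallest p per role and day, up to 3 called genes (or the smallest p) per pathway list, and the 5 genes most like Eif5b. The other eIF3 genes, those for eIF2 subunits, Eif4ebp1 and Eif5a2 at day 27, markers, and genes named between days fall outside it and were chosen after their values were seen. The result of 1 gene in a pathway list is not reported here. Members and lists were chosen with earlier results of these data known. Sequences are from RefSeq, build GRCr8, whose coordinates differ from those of Rnor_6.0.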

Additional observations from a re-analysis of the deposited data

Results flagged for a closer look

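The exposure effect on Eif5b, the subunit-joining GTPase gene, differed between days by a test of the difference itself, with values of 0.288 on the log2 scale between days 27 and 1 and 0.273 between days 27 and 7. That on Eif3a, the largest eIF3 subunit gene, differed by 0.214 between days 27 and 1. With close pairs summed, edgeR's adjusted p was 0.0121 for the first, 0.145 for the second and 0.0774 for Eif3a, and the second was also lost on leaving out any of 17 of the 48 libraries.

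By a gap test at the 95% level, which chance passes in about 1 in 20 groups, 5 of 90 gene and group combinations had a single library apart from its group, a number close to what chance gives. They concern 3 of 15 genes. Eif4e stood at 80.9 CPM in library 1, the lowest of the exposed day 7 group, and at 78.2 CPM in library 1, the lowest of the air day 27 group. Eif4ebp2 stood at 61.8 CPM in library 8, the lowest of the exposed day 1 group, and at 64.1 CPM in library 2, the lowest of the exposed day 27 group. In library 8 of the exposed day 1 group Eif6 was the highest, at 72.7 CPM.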

How the results depend on the processing

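The 6 genes called at day 27 were called again with RLE size factors and with a mean of at least 1 CPM. Eif4g2, Eif5a and Eif6 were not called with no filter, Eif6 not by limma-voom, and these 3 and Eif3j not with 1 surrogate variable. The count of called genes was 3 with no filter on low counts, 12 by DESeq2, 5 by limma-voom, 1 with close pairs summed, 14 with all 48 libraries in one fit, 2 with 1 surrogate variable, 8 with a covariate for the log2 of the library total and 0 with the ribosomal protein level as a covariate, beside 474, 1675, 753, 31, 2227, 57, 967 and 0 of all genes. Leaving out 1 library gave 0 to 13 genes, beside 0.0631% to 13.5% of all genes, with 0 without exposed library 3, 1 without exposed library 8 or air library 6, 2 without exposed library 7 or air library 3, 7 or 8, 3 without exposed library 1 or 6 or air library 5, 10 without exposed library 2 and 13 without air library 2. None of these settings turned the direction of any of the 6 genes at day 27. Eif5b at day 27 was called under every alternative tried but the ribosomal protein covariate (0.252, adjusted p = 0.48) and the fit without exposed library 3, within 0.219 to 0.250 over the libraries left out. Its values at day 1 and day 7 ran from -0.068 to -0.039 and from -0.058 to -0.022 over the libraries left out and were not called. Its exposure effect between days 27 and 1 ran from 0.271 to 0.303 and between days 27 and 7 from 0.252 to 0.291. The second was not called with close pairs summed (0.259), by limma-voom (0.271) or with no filter (0.274), and the cause was not tested. Between days 7 and 1 it ran from -0.003 to 0.036, with the sign turned without air library 7 of day 7 (-0.003) or exposed library 1 of day 7 (-0.002). The median of the 49 genes stayed between -0.027 and 0.008 at each day when single libraries were left out. No paired analysis was possible because no animal number is shared between groups. The least counted of the 49 genes averaged 16.5 CPM.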
